A study of Homo sapiens with 18 samples.

Results

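The regions described here lie in the KRAB zinc finger gene clusters of chromosome 19, as seen in 18 ATAC-seq peak lists from the human lung adenocarcinoma line PC9. The peaks of all lists were merged wherever they shared at least 1 bp. A merged region was a member if its midpoint fell in 1 of 7 windows of the hg19 build of chromosome 19, at 9.2 to 9.95, 11.7 to 12.6, 19.9 to 24.4, 36.6 to 38.3, 44.2 to 45.1, 52.3 to 54.2 and 56.0 to 59.0 Mb. This gave 393 members of 79483 regions in all, and the other 1927 regions of chromosome 19 served for comparison.

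ATAC-seq marks open chromatin by letting a transposase insert sequencing adapters into accessible DNA. PC9 carries a mutant EGFR, and the study set its parental cells beside cells exposed to erlotinib, an inhibitor of the EGFR kinase, in a series on the repression of LINE-1 retroelements under drug stress. There were 6 groups of 3 libraries. PC9 was the unsorted population labelled with DMSO, the vehicle, and DTP (drug-tolerant persister) cells were what survived 8 days of 1 µM erlotinib. The other 4 groups (ALDH_Low and ALDH_High, each with DMSO or erlotinib) were PC9 cells given DMSO or 1 µM erlotinib for 12 hours and then sorted by Aldefluor, a dye that reports aldehyde dehydrogenase (ALDH) activity. All cells were cryopreserved and thawed before the assay, and all came from 1 cell line. The labels do not say whether the letters a, b and c within a group stand for separate cultures, so p-values measure only the spread between these libraries, which may be technical. The labels give no duration for the DMSO of unsorted PC9, so drug, time in culture and survival cannot be told apart between DTP and PC9.

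KRAB zinc finger proteins form the largest family of human transcription factors. Arrays of zinc fingers read DNA, often within retroelements such as LINE-1 and endogenous retroviruses, and the KRAB domain recruits the co-repressor TRIM28 (KAP1), which brings in the methyltransferase SETDB1 and the repressive mark H3K9me3. The genes arose by tandem duplication and lie side by side in clusters, many of them on chromosome 19.

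In the RefSeq gene table (build GRCh38.p14), 265 of 569 protein-coding genes named ZNF, ZFP, ZSCAN, ZIM, ZIK or ZKSCAN with a number lay on chromosome 19 (46.6%). Of these 265, 241 (90.9%) had another of them as the protein-coding gene directly before or after. The name does not say whether a gene has a KRAB domain. The promoters of 3 of them, picked by name, are printed as examples of related start sites. No other promoters were aligned, so their likeness is not shown to be typical of the clusters. ZNF91 and ZNF93 are KRAB zinc finger genes known for binding retroelements, and ZNF43 is a close relative. Each line gives the 250 bases before the RefSeq start, 5′ to 3′ on the gene's strand (minus for ZNF91 and ZNF43, plus for ZNF93). Capitals mark, on either strand, the ETS core CCGGAAG, the CCAAT box CCAATCA and the SP box GGGCGG, which adjoin in places.
ZNF91: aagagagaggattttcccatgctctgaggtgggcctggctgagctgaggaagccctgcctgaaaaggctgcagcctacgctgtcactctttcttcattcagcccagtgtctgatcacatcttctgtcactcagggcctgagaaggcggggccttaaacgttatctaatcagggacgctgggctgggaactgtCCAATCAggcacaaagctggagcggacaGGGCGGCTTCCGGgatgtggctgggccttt
ZNF93: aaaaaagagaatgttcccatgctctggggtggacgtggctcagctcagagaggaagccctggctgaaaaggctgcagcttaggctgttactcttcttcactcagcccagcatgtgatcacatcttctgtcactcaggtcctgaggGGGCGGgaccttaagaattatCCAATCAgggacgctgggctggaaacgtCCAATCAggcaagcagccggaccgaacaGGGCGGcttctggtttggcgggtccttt
ZNF43: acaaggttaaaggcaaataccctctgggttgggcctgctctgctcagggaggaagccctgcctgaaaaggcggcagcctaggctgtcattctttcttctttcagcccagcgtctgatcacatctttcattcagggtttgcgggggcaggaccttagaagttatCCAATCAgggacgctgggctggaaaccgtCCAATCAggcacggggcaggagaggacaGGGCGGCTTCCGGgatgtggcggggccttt

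The 3 promoters were alike over their whole length. Globally aligned, ZNF91 and ZNF93 shared 211 of 246 aligned bases (85.8%), ZNF91 and ZNF43 shared 208 of 242 (86.0%), and ZNF93 and ZNF43 shared 206 of 240 (85.8%). ZNF43 held 2 CCAAT boxes, 1 SP box and 1 ETS core, ZNF91 held 1 of each, and ZNF93 held 2 CCAAT boxes, 2 SP boxes and no ETS core.

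Over the 287 promoter entries (300 bases, 250 before and 50 after the start) that matched 229 of the 265 genes, the ETS core CCGGAAG stood on either strand in 39.7%, against 13.1% of 1261 other chromosome 19 coding promoters and 12.8% of all 22199 coding promoters. The CCAAT box CCAATCA was in 24.7%, against 7.77% and 7.94%. The SP box GGGCGG was in 64.8%, against 66.0% and 56.3%. The AP-1 letters TGANTCA (6.62%, 4.68% and 6.15%), the CTCF letters CNAGNGGGC (8.36%, 10.5% and 10.5%) and the YY1 letters AANATGGCG (4.88%, 5.79% and 4.24%) stood in similar shares of the 3 sets. The shares of the CRE TGACGTCA (3.83%, 2.93% and 2.26%) and of the NRF1 letters TGCGCATGC (3.48%, 2.78% and 1.87%) were low in each set. Median GC content was 60.3% in the zinc finger promoters, 64.3% in the other chromosome 19 promoters and 62.3% in all. A match is a description of letters, not of a bound site. The promoter table and the peak lists use different builds, so no promoter was placed on a region and no region is named by a gene.

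Regions in the clusters were sparse but were shared by more libraries than those elsewhere on the chromosome. The windows span 13.65 Mb and held 28.8 merged regions per Mb, against 46.6 per Mb over the remaining 41.3 Mb. All 18 libraries called 143 of the 393 members (36.4%), against 400 of 1927 regions (20.8%) in the rest of chromosome 19 and 17.7% of all regions. A single library called 52 members (13.2%), against 346 (17.96%) in the rest and 21.2% of all regions. The median member was called in 15 libraries, the median region of the rest in 8. Median merged width was 1271 bp for members and 1182 bp for the rest, but among regions called in all 18 libraries members were the narrower, at 1595 bp against 1840 bp.

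**Figure D1:**
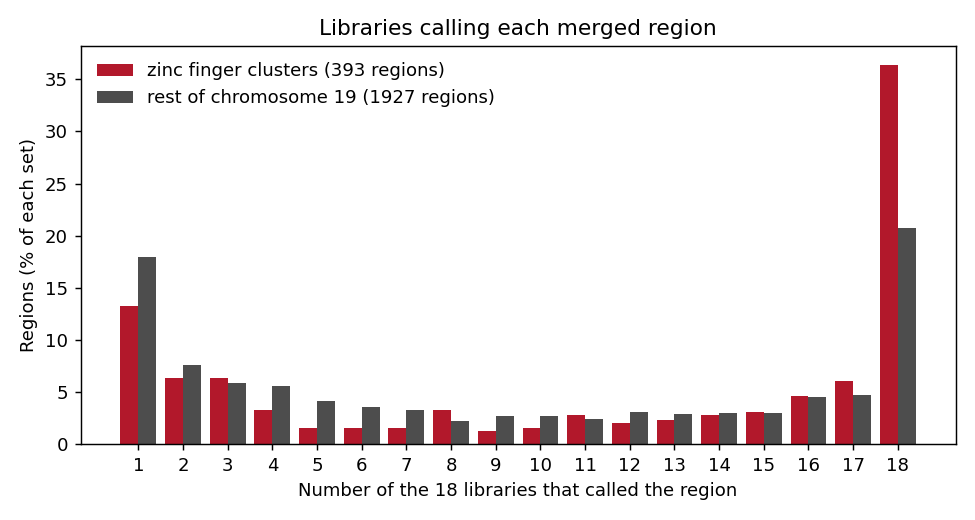
Share of merged regions (% of each set) by the number of the 18 libraries that called them, for the 393 cluster regions and the 1927 regions of the rest of chromosome 19. The bars at 18 libraries stand at 36.4% and 20.8%, and those at 1 library at 13.2% and 17.96%.

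The 7 windows differed in how densely they were called. The 19.9 to 24.4 Mb window had 21.1 regions per Mb (95 regions), and the 36.6 to 38.3 Mb window 21.8 per Mb (37 regions). The 44.2 to 45.1 Mb window had 47.8 per Mb (43 regions), which was above the 46.6 per Mb of the rest of the chromosome. The share of members called in all 18 libraries ran from 28.4% (27 of 95) at 19.9 to 24.4 Mb to 44.0% (11 of 25) at 11.7 to 12.6 Mb. It was 43.9% (47 of 107) at 56.0 to 59.0 Mb, 43.2% (16 of 37) at 36.6 to 38.3 Mb, 34.4% (21 of 61) at 52.3 to 54.2 Mb, 32.0% (8 of 25) at 9.2 to 9.95 Mb and 30.2% (13 of 43) at 44.2 to 45.1 Mb. Neighbouring members lay a median of 22.1 kb apart, against 12.3 kb in the rest. For regions called in all 18 libraries the medians were 44.7 kb and 47.8 kb. The strongly shared regions were thus spaced about alike inside and outside the clusters, and the difference lay in regions that fewer libraries called. Within 100 kb of the window edges there were 68 regions inside and 74 outside.

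The same contrasts were tested within each library, by exchanging clusters and rest (two-sided permutation test over 18 libraries). The density of called regions was 18.2 ± 2.37 per Mb in the clusters and 23.9 ± 3.98 per Mb in the rest (mean ± SD, n = 18), lower in the clusters in 18 of 18 libraries, with a mean difference of -5.63 per Mb (permutation p = 2.0e-05, the smallest the resampling can give). Each peak carried the authors' score, whose scale is not stated and whose lowest value was 70 in every list, so it was used only to rank peaks within a list. Cluster peaks had a median score percentile of 62.7 ± 6.33 and peaks of the rest 47.9 ± 2.42, higher in the clusters in 18 of 18 libraries by a mean of 14.8 points (permutation p = 2.0e-05, again the smallest possible). Both differences were smaller, in the same direction and past the threshold, with a score of at least 100 (-2.25 regions per Mb and 7.54 points) and in lists of equal size (-2.09 per Mb and 8.21 points). Median peak width differed by -26.3 bp, lower in the clusters in 11 of 18 libraries, and did not pass the test (permutation p = 0.108). It did pass without the library DTP a (-32.5 bp, permutation p = 0.0473) or DTP b (-33.7 bp, permutation p = 0.0344). Cluster peaks were therefore fewer per Mb and, by score, stood above the middle of their lists. This percentile covers all called peaks. Among only the regions called in all 18 libraries, members did not rank above the rest by group mean in sorted cells, as given further on.

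The members that were strong everywhere are given by their lowest percentile over the 18 lists. The region at chr19:52692097-52694581 was never below the 93.6th percentile, and that at chr19:58693130-58695803 never below 92.0. Next came chr19:56651392-56653139 (85.3), chr19:58038120-58039498 (84.7) and chr19:23431945-23433815 (83.3). The widest member, chr19:56152009-56156032 (4024 bp), was called in 15 libraries and was missing only from the 3 ALDH-low DMSO libraries. The widest members of the other windows measured 2404 bp at 9.2 to 9.95 Mb, 2355 bp at 11.7 to 12.6 Mb, 2794 bp at 19.9 to 24.4 Mb, 2846 bp at 36.6 to 38.3 Mb, 2059 bp at 44.2 to 45.1 Mb and 2485 bp at 52.3 to 54.2 Mb.

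Lists held from 26228 peaks (ALDH-low DMSO) to 45244 (DTP), and the clusters held from 201 to 310 of a list's peaks in the same 2 groups. PC9 libraries a, b and c had 254, 251 and 263 cluster peaks, and DTP libraries 290, 309 and 310. ALDH-low cells had 201, 202 and 212 under DMSO and 274, 260 and 244 under erlotinib. ALDH-high cells had 226, 217 and 220 under DMSO and 259, 245 and 263 under erlotinib. DTP lay above PC9 in every library by a mean of 47 peaks (exact permutation p = 0.1, the smallest that 3 against 3 libraries allow). Erlotinib lay above DMSO in every sorted library of both fractions, by a mean of 44.5 peaks (exact permutation within fractions, p = 0.005, the smallest possible). With every list cut to its top 26225 peaks by score, the erlotinib difference was 6.5 peaks and no longer passed (exact permutation p = 0.13), while DTP stood 40.7 peaks above PC9 (exact permutation p = 0.1).

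Taken as a share of a library's own chromosome 19 peaks, the clusters stood higher in DTP than in PC9 and lower under erlotinib than under DMSO in sorted cells. PC9 had 19.8%, 20.1% and 19.7% of its chromosome 19 peaks in the clusters and DTP 21.1%, 20.7% and 20.2%. These groups did not overlap, and DTP stood higher by 0.801 percentage points (exact permutation p = 0.1, the smallest possible). The difference was 1.33 points in lists of equal size and 1.62 points by called bases (exact permutation p = 0.1 for both). With a score of at least 100 it was 0.726 points (exact permutation p = 0.2). Among sorted cells the shares under DMSO were 21.4%, 21.4% and 21.9% in ALDH-low and 20.02%, 21.5% and 20.9% in ALDH-high. Under erlotinib they were 18.2%, 18.9% and 19.2% in ALDH-low and 18.5%, 20.4% and 18.8% in ALDH-high.

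The erlotinib share was thus lower, by a mean of 2.19 points over both fractions (exact two-sided permutation within fractions, difference -2.19, p = 0.01). The difference was -2.83 points in ALDH-low, where no library overlapped (exact p = 0.1), and -1.56 points in ALDH-high, where they did (exact p = 0.2). The fractions were not shown to differ in this effect (-1.27 points between them, exact permutation p = 0.145). In lists of equal size the difference was -0.594 points (exact p = 0.09). With a score of at least 100 it was -2.90 points (exact p = 0.015), and by called bases -1.57 points (exact p = 0.02). Why it was smaller in lists of equal size was not tested. ALDH-high and ALDH-low differed by -0.194 points over both treatments (exact p = 0.665), and in lists of equal size the sign was the other way (0.782 points, exact p = 0.03). No single window passed the test after Benjamini-Hochberg adjustment over 21 exact permutation tests. The smallest adjusted p was 0.07, for erlotinib against DMSO at 11.7 to 12.6 Mb (-0.22 points), 19.9 to 24.4 Mb (-0.69 points) and 36.6 to 38.3 Mb (-0.35 points).

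**Figure D2:**
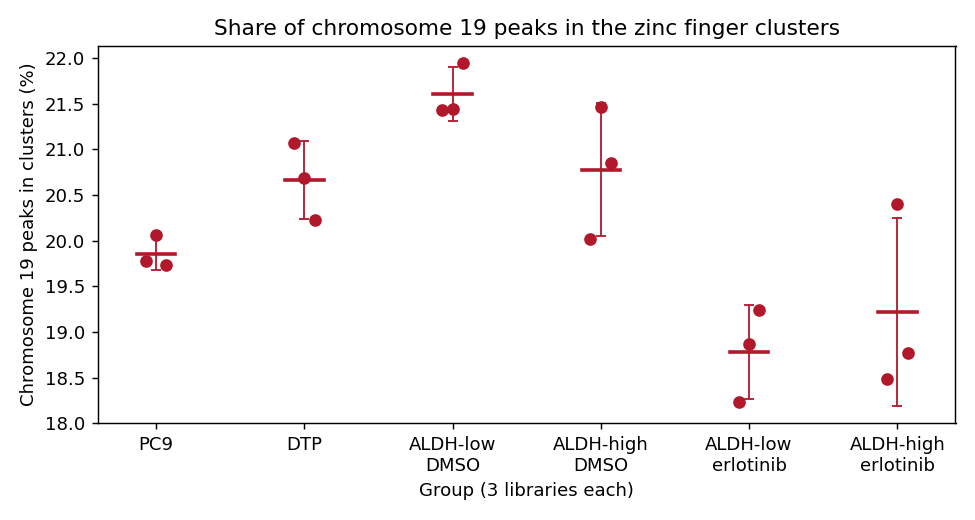
Share (%) of each library's chromosome 19 peaks that fell in the clusters, by group. Points are libraries, short lines group means and bars ± SD (n = 3). DTP libraries sit between 20.2% and 21.1%, above all PC9 libraries, and the 6 sorted erlotinib libraries between 18.2% and 20.4%, against 20.02% to 21.9% under DMSO. The vertical axis does not start at 0.

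Few members appeared or disappeared outright. A member was counted as gained in DTP if it had a call in each of 3 DTP lists but in 0 PC9 lists, and as lost if it was the other way round; later comparisons follow suit. In DTP against PC9, 20 of the 359 members called in either group were gained (5.57%), against 5.33% in the rest of chromosome 19 and 6.75% of all regions tested. Only 1 member was lost (0.279%), against 1.92% in the rest and 3.68% of all regions. The gained share was near the background. The 211 members called in all 6 libraries are described further on.

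Of the 20 gained members, 9 lay at 19.9 to 24.4 Mb, 6 at 56.0 to 59.0 Mb, 3 at 52.3 to 54.2 Mb and 1 each at 11.7 to 12.6 and 44.2 to 45.1 Mb. The strongest was chr19:56621534-56622746, at the 71.5th percentile or above in all 3 DTP lists. All 6 sorted erlotinib libraries also called it, and no PC9 or sorted DMSO library did. Next in strength, chr19:21312602-21313743 (64.7th percentile in its weakest DTP list) was called in 4 of 6 sorted erlotinib libraries, chr19:54099993-54101101 (56.3) in 5 and chr19:56090949-56092847 (42.6) in 2, and none of these in a sorted DMSO library. In contrast, chr19:53558105-53558906 (58.9) was called in DTP alone, in all 3 libraries.

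Over the 20, 10 were called in no sorted library and 10 in at least 1. Each of the latter was called in more erlotinib than DMSO libraries, and 1 of them in any sorted DMSO library, though erlotinib lists were also longer. The same counts are not given for gained regions outside the clusters, so this is not shown to be particular to members. The lost member, chr19:23954471-23955672, was called in the 3 PC9 libraries and in no other, at the 16.9th percentile in its weakest list.

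After 12 hours, 11 of 308 members were gained in ALDH-low cells (3.57%), against 7.38% in the rest of chromosome 19 and 6.82% of all regions, and 1 was lost (background 0.887%). In ALDH-high cells 11 of 307 were gained (3.58%), against 3.69% in the rest and 4.52% of all regions, and 0 were lost, against 7 in the rest (background 0.998%). The ALDH-low count was 22 without the DMSO library c and 21 without b, and 17 without the erlotinib library a or c. The ALDH-high count was 17 without the erlotinib library b. Fewer libraries make the rule easier to meet. In lists of equal size ALDH-low cells had 4 gained and 3 lost members, and ALDH-high cells 2 gained and 0 lost. The share over all regions is not given for these alternatives. The members leading in ALDH-low were chr19:9694502-9695725 (58.6th percentile in its weakest erlotinib list), chr19:24005006-24006318 (57.3), chr19:56152009-56156032 (26.6), chr19:37959605-37960899 (24.7) and chr19:20843586-20845004 (24.4). In ALDH-high they were chr19:52489375-52490657 (48.1), chr19:24005006-24006318 (45.0), chr19:58162269-58163420 (28.1), chr19:9238491-9239523 (21.1) and chr19:56621534-56622746 (14.1).

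Only 4 of 333 members (1.20%) separated treatment in both fractions, called in all 6 erlotinib and no DMSO libraries, against 0.997% in the rest and 1.55% of all regions. These were chr19:24005006-24006318, chr19:37959605-37960899, chr19:56178505-56180063 and chr19:56621534-56622746. PC9 called chr19:24005006-24006318 and chr19:56178505-56180063 in all 3 libraries, chr19:37959605-37960899 in 1 and chr19:56621534-56622746 in none. A call in sorted erlotinib but not sorted DMSO cells therefore did not mean that unsorted vehicle cells lacked it. No member was lost in both fractions (background 0.16%).

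Between the ALDH fractions under DMSO, 4 of 282 members were gained in ALDH-high (1.42%, background 1.28%) and 1 was lost (0.355%, background 0.14%). The gained members were chr19:20188365-20189688, chr19:20843586-20845004, chr19:56152009-56156032 and chr19:9707418-9708459, and the lost one was chr19:52489375-52490657. Under erlotinib, 0 of 314 were gained (background 0.893%) and 3 were lost (0.955%, background 0.446%), at chr19:53540345-53541573, chr19:56142696-56144312 and chr19:23257526-23258860.

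The clearest difference lay in members called in both PC9 and DTP. For each library, regions called in all libraries compared were ranked by their highest score, from 0 to 100. Every library thus ranked the same regions, whatever the length of its list. Whether depth, which is unknown, shaped the scores themselves was not tested. The rank measure was chosen after the data had been seen, and it carries no p. Among the 24186 regions called in all 6 libraries were 211 members. Their median rank was 51.3, 55.2 and 49.7 in PC9 libraries a, b and c and 71.3, 72.5 and 74.8 in DTP. In the rest of chromosome 19 (662 regions) the medians were 42.2, 41.8 and 43.2 in PC9 and 49.5, 48.4 and 51.1 in DTP. Both sets thus ranked higher in DTP in every library, the clusters by the greater margin. The median change per region was 17.2 rank points for members (quartiles 7.01 and 27.3), 6.34 for the rest of the chromosome and 0.475 for all regions.

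Region by region, 117 of 211 members (55.5%) ranked higher in all 3 DTP than in all 3 PC9 libraries, against 24.2% in the rest of chromosome 19 and 17.8% of all regions. Only 5 (2.37%) ranked lower in all 3, against 7.10% in the rest and 17.7% of all regions. The mean rank was higher in DTP for 190 of 211 members (90.0%). The count was as high in proportion among regions called in all 18 libraries (82 of 143, 57.3%, against 18.5% of all such regions), in lists of equal size (90 of 161, 55.9%, against 17.7%) and among peaks with a score of at least 100 (101 of 177, 57.1%, against 17.8%). Ranked among the 873 chromosome 19 regions only, 64 members ranked higher (30.3%, against 14.7% of the 873) and 10 lower (4.74%, against 13.6%). This scale takes out a shift common to the chromosome. The 873 include the 211 members, so a rise of members lowers the other regions on it. Ranked by called bases in place of score, 59 ranked higher (28.0%, against 9.85% of all regions). Leaving out 1 library at a time, which loosens the rule, gave 128 to 138 higher (60.4% to 65.4%, against 22.2% to 23.2% of all regions) and 5 to 8 lower.

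**Figure D3:**
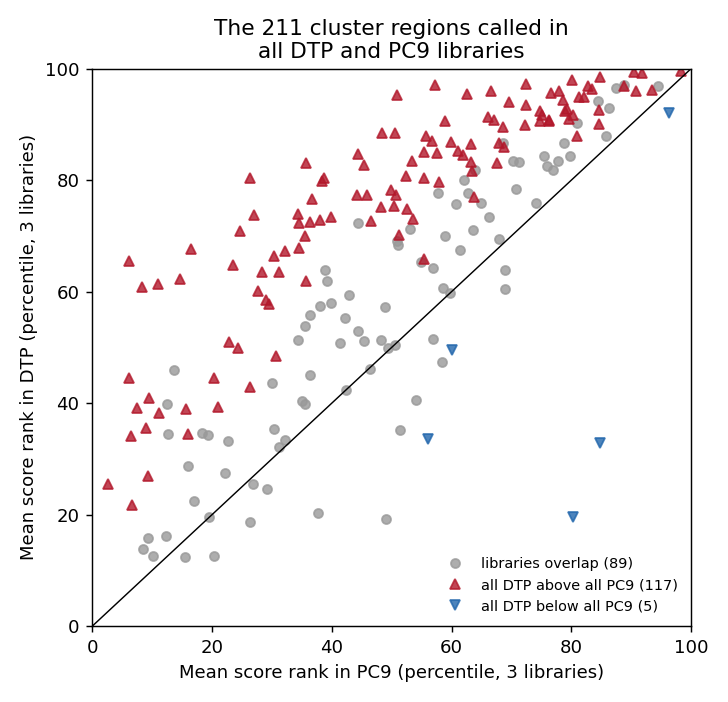
Mean score rank (percentile among 24186 regions) of the 211 cluster regions called in all 6 libraries, in PC9 (horizontal, 3 libraries) and DTP (vertical, 3 libraries), with the line of equal rank. Upward triangles (117) had all DTP above all PC9 libraries, downward triangles (5) the reverse, and grey points overlapped; 190 points lie above the line.

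The windows did not share this equally. At 36.6 to 38.3 Mb, 23 of 26 members ranked higher in all DTP libraries, with a median change of 28.1 points, and none of the 26 changed by less than 11.4 points. At 19.9 to 24.4 Mb it was 32 of 44 (median 14.7 points), at 56.0 to 59.0 Mb 34 of 61 (17.6), at 11.7 to 12.6 Mb 7 of 15 (10.9), at 9.2 to 9.95 Mb 6 of 13 (9.37) and at 52.3 to 54.2 Mb 14 of 32 (17.1). At 44.2 to 45.1 Mb it was 1 of 20, with a median of 4.79 points. This last window was also the most densely called, near the density of the rest of the chromosome. Of the 5 members that ranked lower, 3 lay at 19.9 to 24.4 Mb and 1 each at 9.2 to 9.95 and 56.0 to 59.0 Mb.

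**Figure D4:**
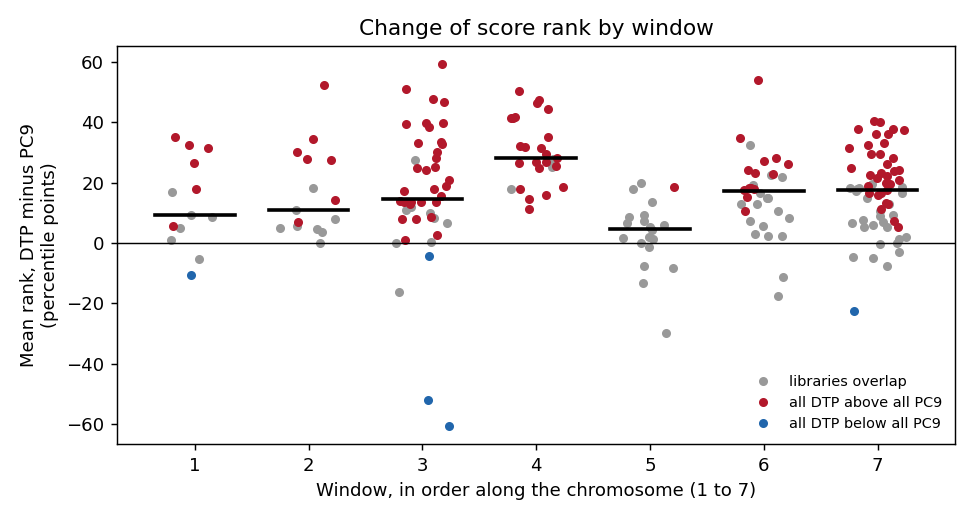
Change of mean score rank from PC9 to DTP (percentile points) for each of the 211 cluster regions, by window in order along the chromosome. Points are regions, coloured by whether all DTP libraries lay above (red), below (blue) or among (grey) the PC9 libraries, and black lines are window medians. All 26 regions of window 4 (36.6 to 38.3 Mb) lie above 0, while window 5 (44.2 to 45.1 Mb) has 1 red point of 20.

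The members that changed most, chosen after their values were seen, came from several windows. The region at chr19:24005006-24006318 ranked at 12.2, 0.240 and 6.00 in PC9 libraries and 74.8, 53.0 and 68.6 in DTP. It is 1 of the 4 that separated the treatments in both sorted fractions. The region at chr19:52772145-52774043 ranked at 41.5, 10.1 and 27.3 in PC9 and 75.6, 82.0 and 83.2 in DTP. The region at chr19:12443927-12445153 ranked at 11.7, 3.45 and 9.96 in PC9 and 61.2, 58.1 and 63.3 in DTP. In each case all DTP libraries lay far above all PC9 libraries. The next were chr19:23940823-23942338 (change of the mean rank 51.1 points), chr19:38269239-38270880 (50.4), chr19:20188365-20189688 (47.6), chr19:37406527-37407878 (47.4) and chr19:20843586-20845004 (46.7).

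Peaks of many of these members were also wider in DTP. Of the 211, 79 (37.4%) were wider in all 3 DTP than in all 3 PC9 libraries, against 19.6% in the rest of chromosome 19 and 15.1% of all regions. Only 2 were narrower (background 6.64%). The median ratio of DTP to PC9 width was 1.18 for members, 1.08 for the rest and 1.05 for all regions. Both wider and higher in rank were 50 members of 211, against 49 of 662 regions in the rest and 1357 of all 24186.

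The DTP level stood apart from the sorted cells as well. Over the 14070 regions called in all 18 libraries, the 143 members had a median rank of 41.7, 43.4 and 42.7 in PC9 and 70.3, 66.0 and 71.2 in DTP. In sorted cells the medians ran from 34.6 (ALDH-high DMSO, library a) to 49.8 (ALDH-low erlotinib, library c). By group they were 40.5 ± 3.12 in ALDH-low DMSO, 48.5 ± 1.26 in ALDH-low erlotinib, 36.7 ± 2.29 in ALDH-high DMSO and 37.6 ± 2.41 in ALDH-high erlotinib (mean ± SD, n = 3). No sorted library reached a DTP value. The rest of chromosome 19 (400 regions) ranked below the members in PC9 (37.3 ± 1.58) and DTP (48.6 ± 1.77). By group mean it ranked above them in sorted cells, at 41.1 ± 2.59 in ALDH-low DMSO and 51.9 ± 3.12 in ALDH-low erlotinib. In ALDH-high it stood at 37.7 ± 0.252 under DMSO and 40.2 ± 2.77 under erlotinib. At 36.6 to 38.3 Mb the median rank of 16 members was 38.2 ± 8.58 in PC9 and 79.2 ± 1.68 in DTP, and 39.8 ± 4.07 and 29.8 ± 7.61 in the ALDH-low and ALDH-high erlotinib groups. At 19.9 to 24.4 Mb (27 members) unsorted cells ranked higher than sorted ones, with 69.2 ± 1.28 in PC9 and 91.1 ± 0.817 in DTP against 44.8 ± 6.31 to 49.8 ± 5.52 in the 4 sorted groups.

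**Figure D5:**
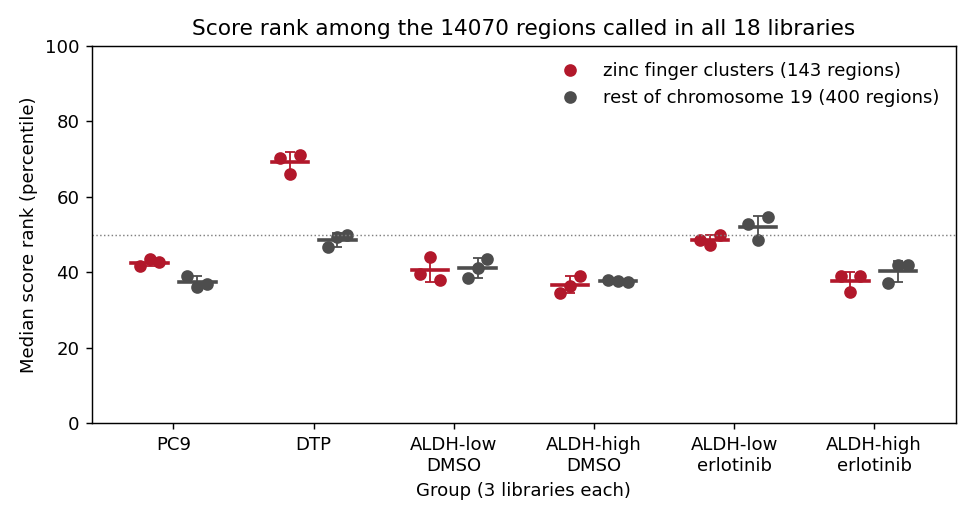
Median score rank (percentile among the 14070 regions called in all 18 libraries) of 143 cluster regions and of 400 regions of the rest of chromosome 19, in each library. Short lines are group means and bars ± SD (n = 3). Cluster medians lie between 66.0 and 71.2 in DTP and between 34.6 and 49.8 in the other 15 libraries.

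The change after 12 hours was smaller. In ALDH-low cells 22 of 157 members ranked higher under erlotinib in all 3 libraries (14.01%, background 13.5%) and 15 lower (9.55%, background 14.1%), against 22.2% and 5.06% in the rest of chromosome 19. In ALDH-high cells 11 of 175 ranked higher (6.29%, background 12.2%) and 14 lower (8.00%, background 12.6%). Over both fractions 1 of 147 ranked higher (background 3.31%) and 4 lower (background 3.91%). Of the 117 members higher in DTP, 83 were called in all ALDH-low libraries, of which 15 ranked higher under erlotinib and 6 lower. In ALDH-high cells 93 were called in all libraries, of which 8 ranked higher and 8 lower. Whether the 12 hour and 8 day changes differ was not tested, and they rest on sorted and unsorted cells respectively.

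Cluster members ranked lower in ALDH-high than in ALDH-low cells more often than higher, as did the rest of the chromosome. Under erlotinib 35 of 206 members ranked lower in all ALDH-high libraries (16.99%, background 8.15%) and 11 higher (5.34%, background 8.46%), against 18.7% and 2.27% in the rest of chromosome 19. Under DMSO 17 of 151 ranked lower (11.3%, background 5.85%) and 4 higher (2.65%, background 5.55%), against 9.05% and 4.30% in the rest.

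Against the general direction, 3 neighbouring members near 24.2 Mb ranked lower in DTP. They were noticed after their values were seen. Among the regions called in all 6 libraries, chr19:24242923-24244441 ranked at 88.2, 86.8 and 79.4 in PC9 and 35.5, 30.2 and 32.7 in DTP. The neighbour chr19:24256259-24257454 ranked at 74.9, 79.0 and 86.7 in PC9 and 8.40, 26.1 and 24.2 in DTP. The change at chr19:24236125-24238009 was small, from 97.5, 96.3 and 95.2 in PC9 to 89.7, 92.8 and 93.5 in DTP. The other members that ranked lower were chr19:57790610-57792925 (mean rank 56.02 in PC9 and 33.5 in DTP) and chr19:9545754-9546898 (60.1 and 49.6).

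Some regions of the same stretch also ranked low after 12 hours of erlotinib. Of its 8 regions called in all 18 libraries (chr19:24097051-24270694, 174 kb), 3 ranked lower under erlotinib in every library of both fractions, and 2 of those 3 were also lower in DTP. On the scale of all 18 libraries, chr19:24236125-24238009 ranked at 61.8, 55.7 and 87.0 in ALDH-low DMSO and 91.2, 92.3 and 76.2 in ALDH-high DMSO. Under erlotinib it ranked at 22.4, 23.9 and 30.1 in ALDH-low and 23.7, 14.7 and 1.92 in ALDH-high. It was thus far lower at 12 hours than in DTP, where it stood at 82.9, 87.9 and 89.1.

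The region at chr19:24139934-24141361 moved in opposite directions in the 2 settings. It ranked at 8.77, 2.44 and 23.3 in ALDH-low erlotinib and 21.7, 6.13 and 1.36 in ALDH-high erlotinib, below all sorted DMSO libraries (48.5 to 72.9). In DTP it ranked at 91.9, 93.8 and 88.2, above PC9 at 51.5, 79.0 and 78.5. The region at chr19:24256259-24257454 was low in both, with a mean rank of 2.64 ± 2.48 in ALDH-low erlotinib, 5.90 ± 6.98 in ALDH-high erlotinib and 7.59 ± 4.49 in DTP, against 31.7 ± 5.31, 30.4 ± 13.8 and 67.8 ± 9.28 in ALDH-low DMSO, ALDH-high DMSO and PC9 (n = 3). The outermost region of the stretch toward the centromere, chr19:24269335-24270694, overlapped in both comparisons. It ranked at 84.1, 92.0 and 94.8 in DTP and 78.1, 84.3 and 61.0 in PC9. Low ranks under erlotinib thus fell on chr19:24139934-24141361 and on 3 consecutive regions, chr19:24236125-24238009, chr19:24242923-24244441 and chr19:24256259-24257454. The middle one ranked at 0.764, 1.19 and 0.277 in ALDH-low erlotinib and 6.72, 2.84 and 25.3 in ALDH-high erlotinib. It overlapped DMSO in ALDH-high. Between the first and these, chr19:24173592-24174735 had mean ranks of 59.0 and 35.8 in ALDH-low and ALDH-high erlotinib. At chr19:24215671-24217564 they were 52.5 and 49.1. Of the other members, chr19:58693130-58695803 ranked lower and chr19:53289059-53290764 higher under erlotinib in both fractions.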

How the data were processed

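Each library had 1 deposited peak list (chromosome, start, end, name, score). Per the submitters' processing notes, the authors' lists come from BWA and MACS 1.4.2 on hg19. For trimming, duplicate removal, transposase shifting and calling settings the entry is: not given in the sources used here. The deposited score has no stated scale. The lists hold no read counts, so depth is unknown, and a missing peak may reflect depth.

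Peaks were merged at 1 bp of overlap on chromosomes 1 to 22 and X (3 to 7 peaks per library lay elsewhere). The rest of chromosome 19 was measured without 1 gap of 3.88 Mb. Group values were compared by exact permutation tests and clusters with rest by 100000 sign-flip resamples, at p under 0.05, in Python 3.11.15 with numpy 2.4.6, pandas 2.3.3 and scipy 1.17.1. The union was checked against bedtools 2.31.1, and calls were tested on simulated data. Regions were named by lowest percentile (up to 5 per comparison and direction, 5 called in all 18 lists, and the widest per window), and others after their values were seen. Members and lists were chosen with earlier results of these data known. Motif searches and rank comparisons were added after seeing the data. No hg19 genome or annotation was used here, so the planned gene names, cell type markers and region motifs were not analysed here. Positions count from 1.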

Additional observations from a re-analysis of the deposited data

Results flagged for a closer look

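The share of chromosome 19 peaks in the clusters moved in opposite directions in unsorted and in ALDH-low cells. It was 0.801 percentage points higher in DTP than in PC9, in every library, and 2.83 points lower under erlotinib than under DMSO in ALDH-low cells (difference -2.83), also in every library, which makes a gap of 3.63 points between the effects. The difference was not tested, and ALDH-low erlotinib lists were also longer than ALDH-low DMSO lists. In lists of equal size DTP stood 1.33 points above PC9, and the erlotinib effect over both sorted fractions was -0.594 points (exact permutation p = 0.09). With a score of at least 100 these were 0.726 points (exact permutation p = 0.2) and -2.90 points (exact permutation p = 0.015). Exposure (8 days against 12 hours) and sorting cannot be told apart here.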

How the results depend on the processing

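Depth limits every absence, since lists without counts cannot tell a closed region from one below the calling threshold. Equal-size lists (26225 peaks) changed the most. With them the erlotinib effect in sorted cells fell short of the threshold for the share (-0.594 points, exact p = 0.09) and for peaks (6.5, exact p = 0.13), and ALDH-high minus ALDH-low turned to 0.782 points (exact p = 0.03) and -7.83 peaks (exact p = 0.07). By called bases that share difference was 0.499 points (exact p = 0.24). In equal-size lists 6 of 21 window shares also turned sign, none passing: DTP against PC9 at 11.7 to 12.6 Mb (0.20 points), erlotinib against DMSO at 9.2 to 9.95 (0.045) and 44.2 to 45.1 Mb (0.13), and ALDH-high against ALDH-low at 19.9 to 24.4 (0.30), 44.2 to 45.1 (-0.031) and 56.0 to 59.0 Mb (0.29). Cluster peaks were narrower past the threshold with a score of at least 100 (-68.0 bp, permutation p = 0.00088), equal-size lists (-68.1 bp, permutation p = 8.0e-05) and windows narrowed by 100 kb (-35.4 bp, permutation p = 0.041). With 1 library left out the width difference ran from -33.7 to -20.6 bp, passing without DTP a (-32.5) and without DTP b (-33.7). The causes were not tested. Density and score percentile kept their direction and call under every alternative run, but their differences shrank to -2.09 per Mb and 8.21 points in equal-size lists, and to -2.25 per Mb and 7.54 points with a score of at least 100.

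Counts of gained and lost members were small and moved easily. The share over all regions is not given for these alternatives, so the counts cannot show whether members moved apart from other regions. With a score of at least 100, 0 members were lost in DTP, 7 gained in ALDH-high under erlotinib, 2 gained in ALDH-high over ALDH-low under DMSO, and 3 gained and 0 lost between fractions under erlotinib. With 50% of a region covered, 2 were gained and 2 lost in ALDH-high over ALDH-low under DMSO. In equal-size lists 0 were lost in DTP, 4 gained and 3 lost in ALDH-low and 2 gained in ALDH-high under erlotinib, 2 lost between fractions under DMSO, and 1 gained and 0 lost between fractions under erlotinib. Leaving out 1 library, which loosens the rule by construction, gave 21 to 28 gained and 1 to 5 lost in DTP, 15 to 22 gained and 1 to 3 lost in ALDH-low, and 12 to 17 gained and 0 to 1 lost in ALDH-high. Between fractions it gave 6 to 10 gained and 1 to 3 lost under DMSO, and 0 to 2 gained and 3 to 7 lost under erlotinib. Of the rank counts in DTP, the higher members were 59 by called bases and 64 within chromosome 19, the lower members 10 within chromosome 19 and 5 to 8 with 1 library left out.

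Libraries with the same letter did not deviate together (correlations of -0.014 to 0.017 over 14070 regions), so letters were not used to pair samples. With the letter as a replicate block, no call changed: the erlotinib effect in sorted cells was -2.19 points (exact p = 0.031) and 44.5 peaks (exact p = 0.031), DTP against PC9 0.801 points and 47 peaks (exact p = 0.25 for both, the smallest possible), and ALDH-high against ALDH-low -0.194 points (exact p = 0.69) and 6.17 peaks (exact p = 0.44).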

Other observations

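The higher rank of cluster members in DTP held at every level of strength. Among regions called in all 6 DTP and PC9 libraries, members were split by their mean rank over the 6. Of those at a mean rank of 0 to 25, 7 of 19 ranked higher in all DTP libraries (36.8%, against 11.6% of all regions). At 25 to 50 it was 25 of 58 (43.1%, against 18.2%), at 50 to 75 it was 45 of 77 (58.4%, against 20.7%), and at 75 to 100 it was 40 of 57 (70.2%, against 19.6%). In the rest of chromosome 19 the shares were 16.1%, 22.3%, 28.6% and 32.4%. The mean rank includes the DTP ranks being compared, so the climb of these shares with strength was not independent of the change itself.

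Chromosome 19 as a whole had 31.7% of 873 regions ranked higher in DTP. Without the 211 members it had 24.2% of 662. Across the other chromosomes the share ran from 8.68% (chromosome 21) to 26.2% (chromosome 16), and chromosome 20 had 24.0%.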
